A study of Mus musculus with 9 samples.

Results

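The 10 genes described here are Per1, Per2, Per3, Cry1, Cry2, Nr1d1, Nr1d2, Dbp, Tef and Arntl (also called Bmal1), which encode parts of the circadian clock and the PAR bZip transcription factors that the clock drives. Their probes were taken by gene symbol: every bead probe whose annotated symbol was one of these names was included, which gave 16 probes among the 25697 on the array. Of the 10 genes, 9 had a probe above background on enough arrays to be measured, among 10073 measured genes in all. Cry1 had 1 probe, which was not above background on any of the 9 arrays, so Cry1 was not measured.

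The study sorted fluorescently marked cells from the tibial periosteum, the layer that covers the shin bone and supplies cells for fracture repair, and profiled their RNA on Illumina bead arrays. All mice were of strain B6;129S6 and carried αSMACreERT2/Ai9, in which a tamoxifen-activated Cre recombinase under the alpha smooth muscle actin promoter switches on a red reporter in cells with active promoter and in their descendants. All received 2 doses of tamoxifen at 75 µg per g of body weight. There were 3 pools of cells per group, taken 6 days after fracture (4, 8 and 4 mice per pool, aged 3 to 5.5 months), 2 days after fracture (8, 8 and 7 mice, aged 2 to 5.5 months) or without fracture, 2 days after tamoxifen (9, 8 and 9 mice, aged 4 to 5.5 months). Each group held 2 male pools and 1 female pool. The actin promoter is also active in vascular smooth muscle and pericytes, so the marked cells need not be of 1 type. Acta2, which encodes alpha smooth muscle actin, was detected in all 9 pools, at log2 intensities between 14.09 and 16.09. The labels used here give no clock time of collection.

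In mammals the clock is a loop of transcription. BMAL1 (from Arntl) pairs with CLOCK or NPAS2 and activates genes with E-box sequences, among them the Per, Cry, Nr1d1, Nr1d2, Dbp and Tef genes. PER and CRY proteins then block that activation, REV-ERBα and REV-ERBβ (from Nr1d1 and Nr1d2) repress Arntl through ROR elements, and DBP and TEF act on D-box sequences in further clock-driven genes. Because of this wiring, transcripts of many of the E-box genes, though not all, peak at about the opposite time of day to Arntl. Bone and cartilage cells hold clocks of their own, and several of these genes, Per1 above all, also respond to glucocorticoids.

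The sequences shown next hold letters that match an E-box, a variant of it or a ROR element. They come from RefSeq promoter windows of mouse build GRCm38.p6, each holding 250 bases before and 50 after an annotated transcription start. The table held 12 windows for 9 of the genes, and none for Per2. The E-box CACGTG was present in 4 of these 12 windows (genes Per1, Cry1 and Tef), against 7.15% of all 32851 windows. The variant CACGTT, which reads AACGTG on the other strand, was present in 3 windows (Cry1, Cry2 and Nr1d1), against 4.68% of all windows. A ROR element, spelled TAGGTCA or alternatively TGGGTCA, was present in 1 window, of Arntl, against 6.45%. Neither the D-box (TTATGTAAT or TTATGCAAT, 0.32% of all windows) nor the cAMP response element TGACGTCA (1.79%) occurred in any of the 12. Both strands were searched, the sites found do not overlap each other, and a match is a description of letters only.

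The stretches below are written 5′ to 3′ on the strand of the gene, with the matched site in capitals. Per1 is at chr11:69098753-69098818 on the plus strand, with its E-box 166 bases before the start. Tef has an E-box in each of its windows, at chr15:81802516-81802581 and chr15:81811246-81811311 on the plus strand, 127 and 138 bases before the start. Nr1d1 is at chr11:98775378-98775435 on the minus strand with the variant 28 bases before the start, and Cry2 at chr2:92434200-92434265 on the minus strand with it 166 bases before. The ROR element of Arntl lies at base 31 after the start of its second window, in chr7:113207529-113207558 on the plus strand.
Per1: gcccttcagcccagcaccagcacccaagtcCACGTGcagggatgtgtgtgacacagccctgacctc
Tef, first window: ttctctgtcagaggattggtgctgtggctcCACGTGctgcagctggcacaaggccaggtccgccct
Tef, second window: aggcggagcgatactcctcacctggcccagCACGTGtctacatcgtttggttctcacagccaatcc
Nr1d1: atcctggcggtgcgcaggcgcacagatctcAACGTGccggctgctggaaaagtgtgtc
Cry2: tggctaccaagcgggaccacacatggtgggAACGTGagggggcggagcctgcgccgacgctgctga
Arntl: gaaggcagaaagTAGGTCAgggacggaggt

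One pool in each group stood apart in macrophage markers: day 6 replicate 1, day 2 replicate 1 and unfractured replicate 3, all from male mice. The mean log2 intensity of 9 measured macrophage and leukocyte markers was 11.07 in the day 6 pool, 12.54 in the day 2 pool and 11.36 in the unfractured pool, and all 9 markers were detected in each. In the other 6 pools it was 7.99 and 8.53 at day 6, 8.05 and 8.71 at day 2, and 7.55 and 6.95 without fracture. Of the same 9 markers, 8 were detected in each of the remaining fracture pools and 4 in each of the remaining unfractured pools. The same 3 pools stood apart in other markers too. The mean of 8 smooth muscle and pericyte markers was lowest of its group in each, at 9.32 (day 6), 8.74 (day 2) and 10.09 (unfractured). The mean of 2 measured adipocyte markers was highest of its group in each, at 9.57, 8.31 and 10.01. Which of these marker differences goes with the clock gene values of these pools was not tested. Neutrophil markers did not follow the order of the macrophage markers. The mean of 8 such markers, all detected in every pool, was 12.71, 10.19 and 10.56 at day 6, 14.80, 10.58 and 10.70 at day 2, and 13.32, 11.26 and 12.97 without fracture, so unfractured replicate 1 was the highest of its group. Results are given over all 9 pools and again over the 6 pools without the macrophage-rich ones, a choice made after the values were seen. Between 40.4% and 55.2% of probes were detected per array. By replicate the shares were 54.5%, 54.4% and 52.1% at day 6, 50.4%, 55.2% and 53.4% at day 2, and 40.4%, 46.4% and 50.7% without fracture. The unfractured arrays kept in the 6 pools, replicates 1 and 2, thus had the lowest shares of all, and the part of this in the results was not tested. Values are log2 intensities after background correction and quantile normalization. Changes are from limma, fitted to all genes, with Benjamini-Hochberg adjusted p-values, and a gene passed at an adjusted p under 0.05. Probes differ in brightness, so a level is compared between pools for 1 gene at a time. In such bulk samples, fewer cells of a type and less RNA per cell cannot be told apart.

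Over all 9 pools, none of the 9 measured clock genes passed the test in any of the 3 comparisons. At day 6 against unfractured, 0 of 9 rose and 0 fell, against 2.19% and 0.625% of all 10073 genes. At day 2 against unfractured, 0 of 9 rose and 0 fell, and no gene of the 10073 passed (0.00% in each direction). Between the fracture times, day 6 against day 2, the counts were again 0 and 0, against 1.31% and 0.109% of all genes, which are 132 and 11 genes, or 85 and 4 with replicate number as a block. By limma's unadjusted p under 0.05, 3 of the 9 were lower and 0 higher at day 2 than without fracture, where 7.02% of all genes were lower and 9.11% higher. The 3 were Dbp, Nr1d1 and Nr1d2. By the same unadjusted p, no clock gene differed at day 6 from unfractured (12.0% of all genes higher, 8.94% lower) or from day 2 (7.00% higher, 4.64% lower).

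Without the 3 macrophage-rich pools, 6 of 9 clock genes fell at day 2 against unfractured and 4 of 9 fell at day 6, after quantile normalization. At day 6 the 4 were Nr1d1, Nr1d2, Per1 and Dbp, against 14.1% of all genes that fell and 16.4% that rose, and 0 clock genes rose. At day 2 the 6 were Dbp, Nr1d1, Nr1d2, Tef, Per2 and Per1, against 9.99% of all genes that fell and 10.8% that rose, and again 0 rose. Day 6 against day 2 gave 0 of 9 in each direction, against 2.44% of all genes that rose and 1.04% that fell. These fits rest on 2 pools per group, and they depend on the scaling: with each array scaled to its median in place of quantiles, 0 clock genes fell in the 6 pools and 1, Arntl, rose in both comparisons with unfractured, against 54.7% of all genes that rose at day 6 and 59.1% at day 2. That scaling moved the median of all genes itself, by 1.08 (log2) at day 6 and 1.23 at day 2 against unfractured in the 6 pools, and by 0.71 and 0.83 over all 9. It moved the split of all genes that rose and fell accordingly. In the 6 pools the split was 5509 and 411 at day 6, where quantile normalization gave 1652 and 1416, it was 5956 and 188 at day 2, where quantile normalization gave 1089 and 1006, and it was 326 and 326 for day 6 against day 2, where quantile normalization gave 246 and 105. Over all 9 pools the split at day 6 was 263 and 7 in place of 221 and 63. The brightness of the raw arrays moved in the same way, with 75th percentiles of 679 and 647 at day 6, 892 and 759 at day 2, and 302 and 350 without fracture in those 6 pools, and its part in the result was not tested. Leaving out unfractured replicate 1 as well, 3 of 9 clock genes fell at day 6 (Nr1d1, Nr1d2 and Per1), against 17.6% of all genes, and 4 of 9 fell at day 2 (Dbp, Nr1d1, Nr1d2 and Tef), against 12.1%. That fit holds 1 unfractured pool, which is assumed to vary like the other groups.

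**Figure D1:**
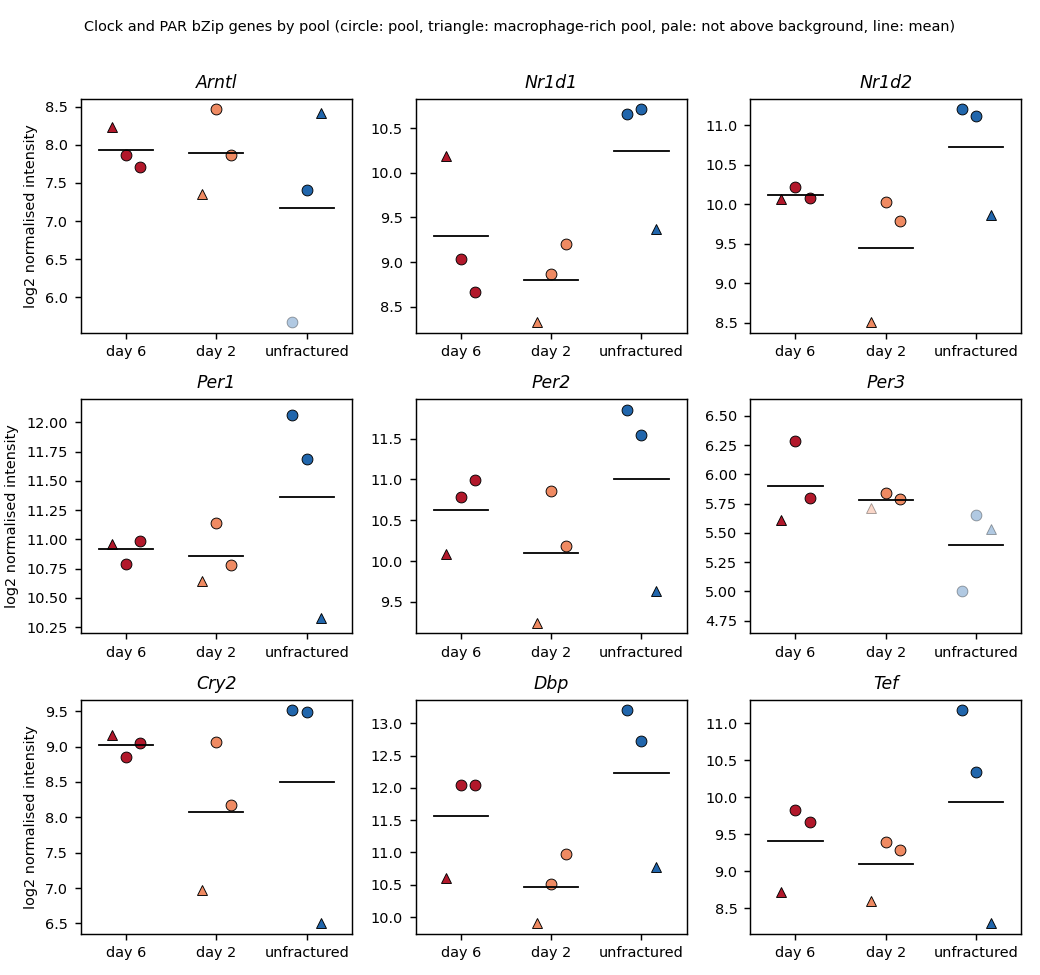
Log2 normalised intensity (vertical axis) of the 9 measured clock genes in each pool, 1 panel per gene, with day 6, day 2 and unfractured pools along the horizontal axis; each circle or triangle is a pool, triangles are the macrophage-rich pools, pale symbols are not above background, and lines are group means. Dbp in unfractured pools lies at 13.20 and 12.73, with the macrophage-rich pool at 10.77, and Nr1d1, Nr1d2, Per1, Per2, Cry2 and Tef also have their macrophage-rich pool lowest in the unfractured group.

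Arntl, the activator of the loop, had its lowest value in unfractured replicate 1, the pool in which Per1, Per2, Cry2, Nr1d2, Dbp and Tef were highest. Its log2 intensities were 8.23, 7.87 and 7.70 at day 6, 7.36, 8.46 and 7.87 at day 2, and 5.68, 7.41 and 8.42 without fracture. The lowest of these, in unfractured replicate 1, was not above background, the macrophage-rich unfractured pool reached 8.42, and the groups overlapped. Over all 9 pools the log2 difference was 0.77 ± 0.62 (SE, n = 3 each; limma adjusted p = 0.519) at day 6 and 0.73 ± 0.62 (limma adjusted p = 0.557) at day 2 against unfractured. In the 6 pools both unfractured values lay below all 4 fracture values. The differences there were 1.24 ± 0.58 at day 6 (limma adjusted p = 0.158) and 1.62 ± 0.58 at day 2 (limma adjusted p = 0.0961), and neither passed. With median scaling in the 6 pools they were 1.69 (limma adjusted p = 0.00127) and 2.26 (limma adjusted p = 4.51e-05), or 0.61 and 1.03 above the shift of all genes. Without unfractured replicate 1 as well, the differences were 0.38 and 0.75 after quantile normalization (limma adjusted p = 0.339 and 0.100).

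Nr1d1, which encodes the repressor REV-ERBα, was the clock gene whose day 2 pools all lay below the unfractured ones. It measured 10.19, 9.04 and 8.66 at day 6, 8.33, 8.86 and 9.20 at day 2, and 10.66, 10.71 and 9.37 without fracture. The highest day 2 pool, 9.20, was just below the macrophage-rich unfractured pool, and at day 6 the macrophage-rich pool was the high one. Of all genes, 7.69% had every day 2 value below every unfractured value, and 1 of the 9 clock genes did. The 9-pool differences were -0.95 ± 0.50 at day 6 (limma adjusted p = 0.313) and -1.45 ± 0.50 at day 2 (limma adjusted p = 0.255). Nr1d1 in the 6 pools fell by 1.84 ± 0.22 at day 6 (limma adjusted p = 0.00562) and by 1.65 ± 0.22 at day 2 (limma adjusted p = 0.0205). Median scaling in those pools gave -0.46 at day 6 and -0.073 at day 2, or -1.54 and -1.30 relative to the shift of all genes, and Nr1d1 did not pass. The second Nr1d1 probe gave -0.99 and -1.92 over all 9 pools, the same direction as the first.

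Nr1d2, encoding the paralogue REV-ERBβ, had log2 intensities of 10.07, 10.22 and 10.08 at day 6, of 8.51, 10.03 and 9.79 at day 2, and of 11.20, 11.11 and 9.87 without fracture. All day 6 pools were above all day 2 pools, which 1 of 9 clock genes and 11.8% of all genes showed. The macrophage-rich day 2 and unfractured pools were each the lowest of their group. Over 9 pools the differences from unfractured were -0.61 ± 0.47 at day 6 (limma adjusted p = 0.501) and -1.29 ± 0.47 at day 2 (limma adjusted p = 0.267), and day 6 minus day 2 was 0.68 ± 0.47 (limma adjusted p = 0.683). Without the macrophage-rich pools Nr1d2 fell by 1.01 ± 0.19 at day 6 (limma adjusted p = 0.0154) and by 1.25 ± 0.19 at day 2 (limma adjusted p = 0.0220). Median scaling turned these values positive, to 0.43 and 0.38, which are -0.65 and -0.86 relative to the shift of all genes. A second, dimmer Nr1d2 probe, detected on 5 of 9 arrays, gave 0.06 at day 6 and 0.11 at day 2 over all pools and so did not follow the first.

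The Per genes encode the PERIOD repressors. Per1, the one most readily induced by outside signals, measured 10.96, 10.79 and 10.99 at day 6, 10.65, 11.14 and 10.78 at day 2, and 12.07, 11.69 and 10.33 without fracture. The 6 fracture pools lay within a narrow band, below unfractured replicates 1 and 2 and above the macrophage-rich one. Its 9-pool differences were -0.45 ± 0.42 at day 6 (limma adjusted p = 0.580) and -0.51 ± 0.42 at day 2 (limma adjusted p = 0.543). Over the 6 pools it fell by 0.99 ± 0.23 at day 6 (limma adjusted p = 0.0300) and by 0.92 ± 0.23 at day 2 (limma adjusted p = 0.0480), while median scaling gave 0.45 and 0.69, or -0.63 and -0.54 relative to the shift of all genes. Its second probe differed from unfractured by -0.42 and -0.50 over all pools, close to the first.

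Per2 measured 10.08, 10.79 and 10.99 at day 6, 9.25, 10.86 and 10.19 at day 2, and 11.85, 11.54 and 9.64 without fracture. In every group the macrophage-rich pool was the lowest. Over 9 pools its differences were -0.39 ± 0.62 at day 6 (limma adjusted p = 0.762) and -0.91 ± 0.62 at day 2 (limma adjusted p = 0.469). Per2 in the 6 pools fell by 1.17 ± 0.28 at day 2 (limma adjusted p = 0.0424), and the day 6 difference of -0.81 ± 0.28 did not pass (limma adjusted p = 0.0834). Median scaling gave 0.65 at day 6 and 0.45 at day 2 in those pools, or -0.44 and -0.78 relative to the shift of all genes.

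Per3 was dim. Its log2 intensities were 5.61, 6.28 and 5.80 at day 6, 5.71, 5.84 and 5.79 at day 2, and 5.00, 5.65 and 5.54 without fracture. It was above background on 3 day 6 arrays, 2 day 2 arrays and 0 unfractured arrays, so the unfractured level is only a bound and no fold is given. Per3 was the 1 of 9 clock genes with all day 2 values above all unfractured values, as 10.9% of all genes had, but with no unfractured value above background this order gives no direction. It passed neither at day 6 (limma adjusted p = 0.330) nor at day 2 (limma adjusted p = 0.486) against unfractured.

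Cry2, which encodes a cryptochrome that joins PER in repression, had the widest range within 1 group, among the unfractured pools. It measured 9.16, 8.86 and 9.06 at day 6, 6.97, 9.06 and 8.17 at day 2, and 9.51, 9.49 and 6.50 without fracture. The macrophage-rich unfractured pool was the lowest of all 9 and the macrophage-rich day 2 pool the next. The direction at day 6 rested on that pool: the difference from unfractured was 0.52 ± 0.81 over 9 pools (limma adjusted p = 0.756) and -0.55 ± 0.32 in the 6 pools (limma adjusted p = 0.241). At day 2 the differences were -0.43 ± 0.81 (limma adjusted p = 0.806) and -0.89 ± 0.32 (limma adjusted p = 0.0970). With median scaling the 6-pool values turned to 0.78 at day 6 and 0.60 at day 2, or -0.30 and -0.63 relative to the shift of all genes.

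Dbp is the PAR bZip factor with the widest daily swing in many mouse tissues. After quantile normalization it differed more at day 2 than the other clock genes. Under median scaling Arntl differed more (1.22, with Dbp at -0.70, over 9 pools). Relative to the shift of all genes under that scaling, Dbp again differed more (-1.53, with Arntl at 0.39). Dbp had log2 intensities of 10.61, 12.04 and 12.04 at day 6, 9.91, 10.52 and 10.97 at day 2, and 13.20, 12.73 and 10.77 without fracture. Unfractured replicates 1 and 2 were above every fracture pool, and the macrophage-rich one lay among the day 2 pools. Over 9 pools the difference was -0.67 ± 0.66 at day 6 (limma adjusted p = 0.601) and -1.77 ± 0.66 at day 2, with a 95% interval of -3.27 to -0.27 before adjustment (limma adjusted p = 0.269). Dbp in the 6 pools fell by 0.93 ± 0.26 at day 6 (limma adjusted p = 0.0446) and by 2.22 ± 0.26 at day 2 (limma adjusted p = 0.0176), which is 4.67-fold lower at day 2. Median scaling gave 0.47 at day 6 and -0.67 at day 2 in those pools, or -0.61 and -1.91 relative to the shift of all genes. Dbp at day 6 was above day 2 by 1.29 ± 0.26 in the 6 pools, where the values did not overlap, and this did not pass (limma adjusted p = 0.0601).

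Tef, the other PAR bZip factor measured here, had log2 intensities of 8.72, 9.83 and 9.67 at day 6, of 8.59, 9.40 and 9.28 at day 2, and of 11.18, 10.34 and 8.30 without fracture. The macrophage-rich pool was again the lowest of each group. Its 9-pool differences were -0.53 ± 0.67 at day 6 (limma adjusted p = 0.693) and -0.85 ± 0.67 at day 2 (limma adjusted p = 0.528). Tef in the 6 pools fell by 1.42 ± 0.31 at day 2 (limma adjusted p = 0.0352), and its day 6 difference of -1.01 ± 0.31 did not pass (limma adjusted p = 0.0585). With median scaling the 6-pool values were 0.41 and 0.17, or -0.67 and -1.06 relative to the shift of all genes.

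**Figure D2:**
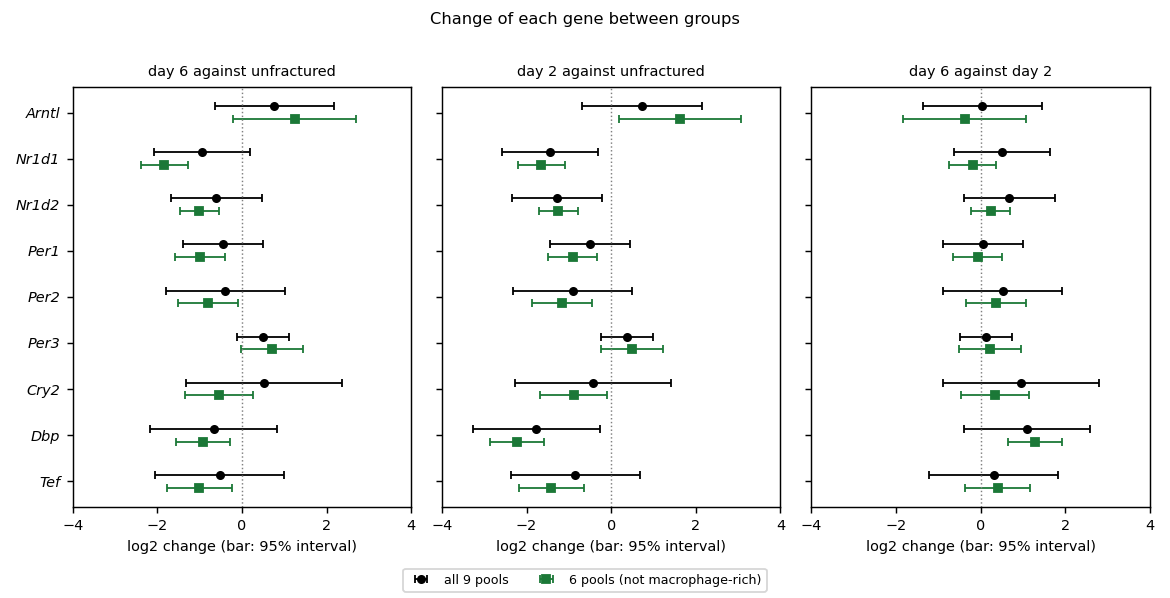
Log2 change (horizontal axis) of each clock gene in 3 comparisons, 1 panel each: day 6 against unfractured, day 2 against unfractured and day 6 against day 2. Circles are fits over all 9 pools and squares over the 6 pools without the macrophage-rich ones, with 95% intervals before adjustment; for Dbp at day 2 they stand at -1.77 and -2.22.

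As a group, 6 of 9 clock genes had a difference below 0 at day 6 against unfractured, where 47.4% of all genes did, and the median over the 9 was -0.45 (all genes, 0.04). At day 2 the count was 7 of 9, against 45.7% of all genes, and the median was -0.85 (all genes, 0.06). With median scaling 1 of 9 was below 0 at day 6 and 3 of 9 at day 2, and relative to the shift of all genes 7 of 9 and 8 of 9 were. In the 6 pools, 7 of 9 had every value lower at day 6 than without fracture, against 30.9% of all genes, and 7 of 9 at day 2, against 28.6%. The other 2, Arntl and Per3, had every value higher in both comparisons, against 38.3% and 37.7% of all genes, but the unfractured values of Per3 were not above background and their order gives no direction. Over all 9 pools the groups overlapped more: at day 6 against unfractured 0 of 9 had every value higher and 0 every value lower, against 14.2% and 11.8% of all genes. Day 6 minus day 2 was below 0 for 0 of 9 clock genes, against 54.0% of all genes, with a median of 0.50 (all genes, -0.04), and in the 6 pools it was below 0 for 3 of 9 (Per1, Nr1d1 and Arntl), with a median of 0.24. No clock gene had every day 6 value below every day 2 value, against 13.2% of all genes. In the 6 pools, 3 of 9 had every day 6 value above every day 2 value, against 29.6% of all genes, and 0 had every value below, against 34.2%. The comparisons at day 6 and day 2 share their unfractured pools.

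The 3 macrophage-rich pools, 1 per group and hence without a test, gave other differences. The macrophage-rich day 6 pool minus the unfractured one was 2.65 for Cry2, 0.82 for Nr1d1, 0.45 for Per2 and -0.16 for Dbp, with a median of 0.42 over the 9 genes. The day 2 pool minus the unfractured one was -1.36 for Nr1d2, -1.06 for Arntl, -1.05 for Nr1d1, -0.87 for Dbp and 0.31 for Per1, with a median of -0.39. Nr1d1, Nr1d2 and Dbp were thus lower at day 2 in these pools too, Arntl was also lower there and not higher as in the 6 pools, and 7 of the 9 were higher at day 6. A single pool decided much of the 9-pool result. Without unfractured replicate 3 alone, Dbp (-2.50, limma adjusted p = 0.0357), Nr1d1 (-1.89, limma adjusted p = 0.0484), Nr1d2 (-1.72, limma adjusted p = 0.0498) and Per1 (-1.02, limma adjusted p = 0.0457) fell at day 2, against 4.31% of all genes that fell in that fit, and Per1 (-0.96, limma adjusted p = 0.0392) fell at day 6, against 7.39%.

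In the 6 pools, most markers of vessel cells and of neutrophils were lower after fracture, as most clock genes were. Over all 9 pools the neutrophil markers did not follow the clock genes throughout. Their mean was highest in day 2 replicate 1, at 14.80, where Dbp, Nr1d1, Nr1d2 and Per2 were lowest. In unfractured replicate 1 it was high as well, at 13.32, and there Dbp, Nr1d2 and Per2 were highest. The mean of 6 measured endothelial markers in the 6 pools was 7.81 and 8.50 at day 6, 8.92 and 7.88 at day 2, and 11.01 and 10.58 without fracture. In those pools 5 of the 6 endothelial markers fell at day 6, with a median difference of -2.68 over the list, and 5 of 6 fell at day 2, with a median of -2.38. Between 5 and 6 of the markers were above background in every pool. The mean of 8 smooth muscle and pericyte markers was 10.16 and 9.84 at day 6, 11.04 and 10.64 at day 2, and 11.96 and 11.73 without fracture in the 6 pools, where 5 fell and 1 rose at day 6 and 3 fell at day 2. With median scaling in the 6 pools, 4 endothelial markers fell at day 6 and 2 at day 2, and of the smooth muscle and pericyte markers 4 fell and 1 rose at day 6 and 1 rose at day 2. Neutrophil markers were below 0 for 8 of 8 in both comparisons of the 6 pools, with medians of -1.87 at day 6, where 2 fell, and -1.64 at day 2, where 1 fell (2 and 0 with median scaling). Of the 9 macrophage and leukocyte markers, 4 rose and 0 fell at day 6 in the 6 pools. At day 2, 3 of them rose and 0 fell. Their median differences were 0.55 and 0.45, and with median scaling 7 rose at day 6 and 8 at day 2. Leaving out the macrophage-rich pools thus did not remove the difference in these markers between fracture and unfractured pools. All 5 cartilage markers rose at day 6 in the 6 pools, with a median of 7.15, and 1 rose and 1 fell at day 2. Of all genes in the 6 pools, 14.1% fell and 16.4% rose at day 6, and 9.99% fell and 10.8% rose at day 2. With median scaling 411 of 10073 genes fell at day 6 and 188 at day 2, while 54.7% and 59.1% rose. The part of any of these lists in the clock gene differences was not tested.

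**Figure D3:**
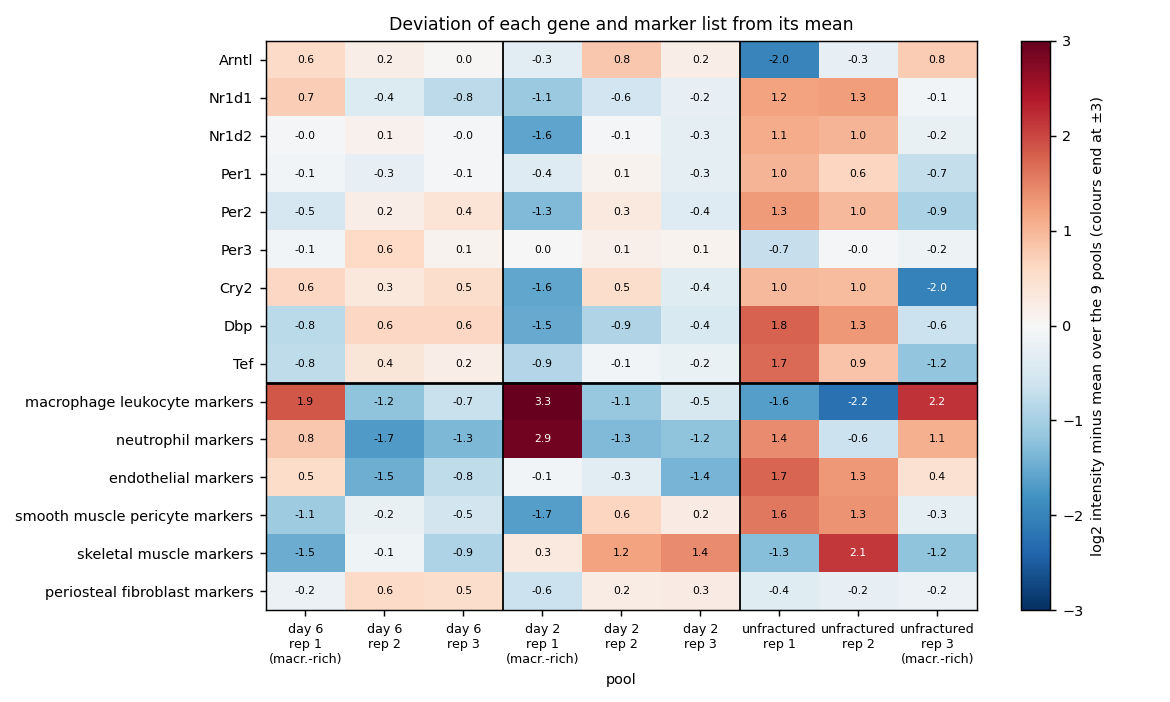
Deviation of each clock gene, and of the mean of each marker list, from its mean over the 9 pools (log2, colour scale ending at 3 in each direction, value printed in each cell), with pools in columns as day 6, day 2 and unfractured and the macrophage-rich pools marked. The unfractured columns of replicates 1 and 2 are high in Nr1d1, Nr1d2, Per1, Per2, Cry2, Dbp and Tef. They are also high in the endothelial and smooth muscle rows, and low in Arntl. The neutrophil row is highest in day 2 replicate 1, at 2.9, and among the unfractured pools in replicate 1, at 1.4.

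Across the 9 pools, Per1, Per2, Cry2, Nr1d1, Nr1d2, Dbp and Tef varied together, with Pearson's r between 0.52 and 0.94 over their 21 pairs (Spearman's rho 0.38 to 0.95). The closest pair was Per2 with Tef by r, and Per1 with Cry2 by rho. Arntl ran the other way, with r between -0.76 (Tef) and -0.33 (Cry2) and rho between -0.50 and -0.12. Its lowest value, in unfractured replicate 1, was not above background, and Per1, Per2, Cry2, Nr1d2, Dbp and Tef were highest in that pool. How far r rests on that pool was not tested. The 7 genes were grouped after their values were seen, and the pools share their groups, arrays and normalization, so these values are a description with no test. Many genes outside the loop were as close. Those with the highest r over the 9 pools were Syt11 for Dbp (0.97), Vipr2 for Tef (0.99), Tmem255a for Nr1d1 (0.98), Csrnp2 for Nr1d2 (0.99), Pbxip1 for Per1 (0.99), Slc24a3 for Per2 (0.99), Klhl21 for Cry2 (0.99), BC004004 for Per3 (0.93) and Snap29 for Arntl (0.97).

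Of 11 other core clock genes, 8 were measured, and over all 9 pools 0 passed in any comparison. Clock, the partner of BMAL1, lay between 10.57 and 11.22 in all pools, with differences of 0.06 ± 0.24 at day 6 and 0.04 ± 0.24 at day 2 from unfractured (limma adjusted p = 0.915 and 0.948). Clock rose with median scaling in the 6 pools, by 1.53 at day 6 and 1.91 at day 2 (limma adjusted p = 0.00255 and 0.000233), or 0.44 and 0.68 relative to the shift of all genes. Npas2, its stand-in, measured 6.13, 5.74 and 5.56 at day 6, 7.02, 5.70 and 6.55 at day 2, and was not above background in any unfractured pool. For a comparison, unfractured values were raised to at least the lowest level called above background on their array. Against these the Npas2 mean was 1.21-fold at day 2 and 0.79-fold at day 6, so day 6 gives no direction. The day 2 difference as measured did not pass (limma adjusted p = 0.197). With median scaling in the 6 pools Npas2 passed at day 2 (0.97, limma adjusted p = 0.0469), at -0.26 relative to the shift of all genes. Ciart, a repressor of CLOCK and BMAL1 driven by E-boxes, measured 8.20, 6.92 and 7.26 at day 6, 7.55, 6.42 and 6.82 at day 2, and 8.51, 8.42 and 7.49 without fracture. Ciart in the 6 pools fell by 1.38 ± 0.23 at day 6 (limma adjusted p = 0.0119) and by 1.85 ± 0.23 at day 2 (limma adjusted p = 0.0188). With median scaling there it was at -0.22 and -0.66, or -1.30 and -1.90 relative to the shift of all genes, and did not pass. Rora, an activator that acts on ROR elements, fell by 1.30 ± 0.33 at day 2 in the 6 pools (limma adjusted p = 0.0470), while median scaling gave 0.27, or -0.96 relative to the shift of all genes. Over all 9 pools Bhlhe40, a further E-box repressor, differed by -0.45 ± 0.41 at day 6 and -0.75 ± 0.41 at day 2, and Nfil3, which opposes the PAR bZip factors at D-boxes, by -0.26 ± 0.35 and -0.03 ± 0.35. Under median scaling in the 6 pools Bhlhe40 rose by 1.03 at day 6 and 1.05 at day 2 (limma adjusted p = 0.0339 and 0.0279), or -0.059 and -0.18 relative to the shift of all genes, and Nfil3 rose by 1.52 at day 2 (limma adjusted p = 0.00292), or 0.29 relative to it. Hlf, the third PAR bZip gene, was not above background in any unfractured pool and no fold is given.

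Genes that the clock or glucocorticoids are known to drive were set beside the loop. Over all 9 pools, 0 of 4 measured clock output genes, 0 of 6 measured glucocorticoid-responsive genes, 0 of 7 measured immediate early genes and 0 of 4 measured genes of clock protein turnover passed in any comparison. Of the 4 clock output genes in the 6 pools, 3 fell and 1 rose at each time. The gene that rose was not above background in any unfractured pool. With median scaling 1 fell and 1 rose at day 6, and 0 fell and 1 rose at day 2. Usp2, a deubiquitinase with a daily rhythm, measured 9.60, 9.10 and 9.47 at day 6, 8.89, 10.96 and 10.39 at day 2, and 12.13, 11.83 and 8.96 without fracture. As with Dbp and Tef, its macrophage-rich unfractured pool was the low one. Usp2 in the 6 pools fell by 2.70 ± 0.28 at day 6 (limma adjusted p = 0.00422) and by 1.31 ± 0.28 at day 2 (limma adjusted p = 0.0340). With median scaling in those pools it fell by 1.32 at day 6 (limma adjusted p = 0.00804), and its day 2 value turned to 0.28, or -0.95 relative to the shift of all genes. Tsc22d3, which encodes the glucocorticoid-induced leucine zipper protein and is on both the output and the glucocorticoid list, fell by 1.35 ± 0.34 at day 6 (limma adjusted p = 0.0353) and by 1.60 ± 0.34 at day 2 (limma adjusted p = 0.0344) in those pools, while median scaling gave 0.051 and -0.055, or -1.03 and -1.29 relative to the shift of all genes. Fkbp5, a standard glucocorticoid target, rose in them by 0.89 ± 0.21 at day 2 (limma adjusted p = 0.0412), and its day 6 difference of 0.29 ± 0.21 did not pass (limma adjusted p = 0.339). With median scaling Fkbp5 rose at both times, by 1.55 at day 6 (limma adjusted p = 0.00241) and 2.36 at day 2 (limma adjusted p = 2.13e-05), or 0.47 and 1.13 relative to the shift of all genes. Over the 6 pools 3 of 6 glucocorticoid-responsive genes fell and 0 rose at day 6, where 14.1% of all genes fell and 16.4% rose. At day 2, 1 fell and 1 rose, where 9.99% of all genes fell and 10.8% rose. With median scaling 2 rose and 0 fell at each time, where 54.7% of all genes rose at day 6 and 59.1% at day 2. The list median was then -0.49 at day 6 and -0.45 at day 2 relative to the shift of all genes. The immediate early genes Fos and Jun, induced within minutes of handling or digestion of tissue, differed over the 9 pools by -0.48 ± 0.26 and -0.20 ± 0.59 at day 6, and by -0.31 ± 0.26 and -0.61 ± 0.59 at day 2. All 7 immediate early genes were below 0 at each time, over the 9 pools and in the 6 pools. Their 6-pool medians were -0.91 at day 6 and -0.89 at day 2. Of the 7, 2 fell at each time in the 6 pools, against 14.1% of all genes at day 6 and 9.99% at day 2. With median scaling there 1, Jun, rose at day 6 (1.42, limma adjusted p = 0.00412, or 0.33 relative to the shift of all genes), against 54.7% of all genes. None fell, and Fos was at 0.44, or -0.64 relative to that shift. The list median was then -0.94 at day 6 and -1.06 at day 2 relative to the shift of all genes.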

How the data were processed

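Each of 9 pools of sorted cells was measured on 1 Illumina bead array. The authors deposited a probe intensity and a detection p-value per array, and per the submitters' processing notes used GenomeStudio. A second deposited table of processed intensity values, whose making is not given in the sources used here, served as an alternative. The members and gene lists were chosen with earlier results of these data known. Groups come from the sample titles. The labels give a number of mice per pool but do not say how pools were formed, so p-values measure the spread between these pools.

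Intensities were corrected, quantile normalized and put on a log2 scale with neqc (limma 3.58.1 in R 4.3.3, offset 16). Probes with a detection p-value under 0.05 on at least 3 of 9 arrays were kept, 14519 of 25697, of which 858 had no gene symbol. Each of 10073 genes was represented by its brightest kept probe, by the mean over arrays. limma's moderated linear model had 1 mean per group over all 9 pools and 6 residual degrees of freedom, and p-values were adjusted by Benjamini-Hochberg over all genes. The fit was tested on simulated data. The number of arrays limits the precision. Named genes are every member, 12 fixed clock, glucocorticoid and immediate early genes, and the genes with the highest Pearson's r to each member.

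Pools with the same replicate number deviated together between day 6 and day 2 (correlations over genes of 0.63, 0.52 and 0.51). Against unfractured they did not (day 6: -0.14, 0.26 and -0.28; day 2: -0.19, 0.40 and -0.31). The labels do not say that numbers pair pools. In both fracture groups replicate 1 is the macrophage-rich pool.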

Additional observations from a re-analysis of the deposited data

How the results depend on the processing

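The 9 clock genes were refitted in 3 comparisons under 22 other settings, 4 of them chosen after seeing the data (the 6 pools without the macrophage-rich ones, alone, with median scaling, with the deposited value table, and without unfractured replicate 1 as well, which leaves 5 pools). Of 594 values, 509 kept their direction and their side of the threshold, 38 kept their direction and passed, and 47 changed direction. The cause was not tested. Median scaling, which moves the median of all genes, gave at day 6 against unfractured 0.52 for Per1, 0.58 for Per2, 0.35 for Nr1d2, 0.28 for Dbp and 0.42 for Tef, and at day 2 gave 0.58 for Per1, 0.21 for Per2, 0.55 for Cry2 and 0.25 for Tef. For day 6 against day 2 it gave -0.060 for Per1 and -0.13 for Arntl. In the 6 pools it gave at day 6 against unfractured 0.45 for Per1, 0.65 for Per2, 0.43 for Nr1d2, 0.47 for Dbp and 0.41 for Tef, and at day 2 gave 0.69 for Per1, 0.45 for Per2, 0.60 for Cry2, 0.38 for Nr1d2 and 0.17 for Tef. Cry2 at day 6 against unfractured was -0.55 in the 6 pools, -0.41 there with the deposited values and -0.54 in the 5 pools. For day 6 against day 2 the 6 pools and the 5 pools both gave -0.070 for Per1, -0.18 for Nr1d1 and -0.38 for Arntl. With median scaling they gave -0.24 for Per1, -0.39 for Nr1d1 and -0.56 for Arntl, and with the deposited values -0.062 for Per1, -0.13 for Nr1d1 and -0.22 for Arntl. Leaving out single pools gave ranges at day 6 against unfractured of -1.08 to 0.031 for Per2, -0.48 to 1.03 for Cry2 and -1.35 to 0.089 for Tef. At day 2 against unfractured the ranges were -1.43 to 0.11 for Cry2 and -0.019 to 1.35 for Arntl. For day 6 against day 2 they were -0.046 to 0.20 for Per1, -0.076 to 0.26 for Per3 and -0.23 to 0.32 for Arntl.

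Counts moved with the same choices. Leaving out single pools, 0 to 4 clock genes fell at day 2 and 0 to 1 at day 6 against unfractured. Of all 10073 genes, 0 to 434 fell at day 2 and 3 to 744 at day 6 in these fits. The counts of all genes that passed in either direction ranged from 53 to 1568 at day 6 against unfractured, from 0 to 924 at day 2, and from 47 to 189 for day 6 against day 2. In the 6 pools 4 clock genes fell at day 6 and 6 at day 2, against 14.1% and 9.99% of all genes. With median scaling 1 rose in each comparison with unfractured, against 54.7% and 59.1% of all genes. With the deposited values in those pools 6 fell in each, where 1532 of 10073 genes fell at day 6 and 1264 at day 2. With the same values Dbp alone rose at day 6 against day 2 (count 1), where 588 of all genes rose. All genes that passed numbered 3068, 5920 (median scaling) and 3363 (deposited values) at day 6 against unfractured, 2095, 6144 and 2831 at day 2, and 351, 652 and 1008 for day 6 against day 2. In the 5 pools 3 clock genes fell at day 6 and 4 at day 2, Dbp rose at day 6 against day 2 (count 1), and 3770, 2618 and 1892 genes passed at day 6, at day 2 and for day 6 against day 2. Over 9 pools the count was 139 at day 6 with only the groups compared in the fit, and for day 6 against day 2 it was 80 with median scaling, 216 with only the groups compared and 89 with the replicate block. That block changed no clock gene's call. Brightness limits Per3, Npas2 and Hlf, which lie near background.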
